A study of Mus musculus with 15 samples.

Results

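Mural cells, the pericytes and smooth muscle cells that wrap blood vessels, were followed through 10 genes: Rgs5, Cspg4, Notch3, Abcc9, Kcnj8, Des, Acta2, Tagln, Cnn1 and Myh11. They were chosen by name, as genes of pericytes and vascular smooth muscle, from the 19752 named genes of the array, and each was read by 1 probe. All 10 passed the filter on dim probes. RNA came from whole mammary tumours of female MMTV-PyMT mice, which carry the polyoma middle T oncogene under a mammary promoter and develop carcinomas in the mammary gland. Tumours were taken before any treatment (T0, 4 arrays) or at the end of treatment with vehicle (3 arrays), B20 (4 arrays) or nintedanib (4 arrays), started at 7 weeks of age. B20 (B20-4.1.1) is an antibody against VEGF, injected at 5 mg/kg, 2 times per week. Nintedanib is an oral inhibitor of the VEGF, PDGF and FGF receptor kinases, given at 85 mg/kg per day. The strain background, and the age of the mice at the end of treatment, are not given in the sources used here. T0 replicate 4 carries the labels of both untreated and vehicle samples, and its title places it in T0. Nothing in the labels ties the arrays of a group to separate animals, and the p-values measure the spread between these arrays, which may be technical.

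Endothelial cells release PDGF-B, and pericytes, which carry its receptor, are drawn to the new vessel by it. Pericytes share the basement membrane of the endothelium and are marked by signalling and channel proteins, while smooth muscle cells of larger vessels hold a contractile apparatus built under the control of serum response factor (SRF). Several of these genes are also active elsewhere in a mammary tumour: myoepithelial cells and activated fibroblasts make the contractile proteins, and desmin is a main filament protein of skeletal muscle.

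A level is the log2 signal of a spot minus the 75th percentile of its array, so 0 is the level of that percentile and a difference of 1 is a doubling. Between 53.5% and 68.1% of probes were well above background on 14 arrays and 84.2% on T0 replicate 3. Every member was well above background on all 15 arrays except Myh11, which was so on 12. The T0 arrays lie on slides of their own and were scanned in another session than the rest, so a difference from T0 cannot be told apart from slide and session. The arrays taken at the end of treatment share a slide of 8 arrays and a slide of 3, which hold all 3 groups. A lower level in such bulk RNA cannot tell fewer cells of a type from less RNA per cell.

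Acta2 is the textbook target of SRF, which binds the CArG box, and its level moved with those of Tagln and Cnn1 from array to array, so its start region is shown. Promoter sequences of RefSeq (GRCm38.p6) matched 8 of the 10 members. No strict CArG box lay in the 250 bases upstream of the start in any of the 8, against 1.47% of 32851 mouse promoters. With 1 C or G allowed among the inner bases, a CArG box was found in Acta2 and in no other of the 8, against 8.59% of all promoters. The members without a matched sequence were not searched, and neither were bases outside these 250. A CArG box elsewhere in any member would have been missed. TGGGAA on either strand, the core of the site of RBPJ, through which Notch receptors act, was found in Acta2 and Abcc9 and in 21.6% of all promoters. In Acta2 it overlaps the nearer of the CArG-like sites. The capitals mark the matched bases, and the windows lie on the minus strand at chr19:34255438-34255467, chr19:34255388-34255417 and chr6:142702478-142702507, read 5′ to 3′ along the gene.
Acta2 site 84 bases upstream: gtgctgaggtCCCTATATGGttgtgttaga
Acta2 site 34 bases upstream: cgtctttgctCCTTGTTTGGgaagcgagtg
Abcc9 site 221 bases upstream: ggtggtcctgaaTGGGAAtggccggagtga

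The first question was whether either antiangiogenic drug left tumours with other levels of mural genes than vehicle did, and whether the drugs differed from each other. No member passed the test in any of the 3 comparisons, and neither did any other gene: the share of the 28041 genes and unnamed transcripts that limma called at an adjusted p under 0.05 was 0% for nintedanib against vehicle, 0% for B20 against vehicle and 0% for nintedanib against B20. At an unadjusted p under 0.05 the counts were 1353, 912 and 2629 genes. Among members, that limit was passed by Rgs5 alone and in nintedanib against B20 alone.

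Rgs5 dampens G protein signalling and is among the most used pericyte markers. Its level was 0.74, 0.24 and 0.23 in the vehicle arrays, -0.01, 0.23, -0.82 and -1.12 in the B20 arrays, and -0.21, 0.94, 0.83 and 0.00 in the nintedanib arrays. Every B20 array lay below every vehicle array, by a narrow margin for B20 replicate 2, while nintedanib overlapped both. The share of all genes separated in this way was not counted, so the separation cannot be weighed. B20 differed from vehicle by -0.83 ± 0.39 (SE; unadjusted p = 0.0538, adjusted p = 0.998), and nintedanib from B20 by 0.82 ± 0.36 (unadjusted p = 0.0418, adjusted p = 0.53). On the slide of 8 arrays B20 differed from vehicle by -0.69, and on the slide of 3, with 1 array per group, by -1.35. The endothelial markers, whose vessels the pericytes cover, had mean levels of -0.58 to -0.13 in B20 and -0.12 to 0.40 in vehicle arrays. Within groups, over all 15 arrays, the deviations of Rgs5 and of these markers had r = 0.47 and rho = 0.475 (adjusted p = 0.246 and 0.238 over 70 such relations, exact permutation).

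Abcc9 and Kcnj8 encode the 2 parts of the vascular ATP-sensitive potassium channel, the sulfonylurea receptor and the pore, and are neighbours in the genome with no gene between them. Abcc9 stood at -1.16, -1.20, -1.05 and -1.25 in the nintedanib arrays, the tightest group of any member, with an SD of 0.09. It stood at -0.58, -0.97 and 0.42 in vehicle and -0.16, -0.93, -0.19 and -0.38 in B20. All nintedanib arrays lay below all vehicle and B20 arrays, and the differences of -0.79 ± 0.54 and -0.75 ± 0.50 did not pass the test (adjusted p = 0.999 and 0.663). How large a share of all genes was separated like this was not counted. The difference from vehicle was -0.36 on the slide of 8 arrays and -1.67 on the slide of 3. Kcnj8 stood at -1.78, -2.50 and -1.58 in vehicle, -2.39, -2.02, -2.54 and -2.41 in B20, and -2.48, -2.18, -1.85 and -2.82 in nintedanib. Its differences from vehicle were -0.38 ± 0.31 with either drug, and the groups overlapped.

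Cspg4, the NG2 proteoglycan of the pericyte surface, and Notch3, the Notch receptor of mural cells, overlapped among all 3 groups. Cspg4 lay between -1.97 and -1.10 in vehicle, -1.98 and -1.40 in B20, and -1.74 and -0.88 in nintedanib. Notch3 stood at 2.46, 1.87 and 2.46 in vehicle, 2.08, 1.63, 2.50 and 2.26 in B20, and 2.92, 2.98, 1.81 and 2.62 in nintedanib. Nintedanib replicate 3 was below all vehicle arrays and the other nintedanib arrays were above them. Notch3 in nintedanib differed from vehicle by 0.32 ± 0.34 and from B20 by 0.47 ± 0.32.

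The contractile genes also overlapped among the groups at the end of treatment. Acta2, smooth muscle actin, had group means of 2.04 ± 0.57 in vehicle (SD, n = 3), 1.83 ± 0.69 in B20 (n = 4) and 2.59 ± 0.73 in nintedanib (n = 4). Tagln, the actin-binding protein transgelin, had means of 3.0 ± 0.33, 3.14 ± 0.31 and 3.22 ± 0.41 in the same order. With the groups ordered by their means, neighbours differed by less than the SD of each in both genes, and all 3 groups overlapped. Cnn1, calponin, which inhibits the myosin motor, stood at -1.75, -1.48 and -0.90 in vehicle, -0.74, -0.79, 0.38 and -1.47 in B20, and -1.31, -0.56, 0.13 and 1.21 in nintedanib. Its difference between nintedanib and vehicle, 1.24 ± 0.69, was its largest among the treated groups and did not pass the test (adjusted p = 0.999). Adipocyte markers had mean levels of -1.57 to 0.34 in the vehicle arrays and -0.07 to 2.89 in the nintedanib arrays, where replicate 4, the highest in Cnn1, was also the highest. In vehicle, replicate 3 was the highest in both, while in B20 replicate 3 was the highest in Cnn1 and replicate 1 in adipocyte markers. The part of adipocytes in the difference of Cnn1 was not tested. Myh11, the myosin heavy chain of smooth muscle, ranged from -5.38 to -2.44 over these arrays and was not well above background in vehicle replicate 2 and B20 replicate 2.

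Des, the intermediate filament protein desmin, varied most. It stood at -3.18, -3.31 and -0.91 in vehicle, 3.09, -2.0, -0.12 and -3.63 in B20, and -1.73, -1.0, 0.93 and -2.75 in nintedanib. The B20 group spanned the whole range of these arrays, with replicate 1 the highest of them and replicate 4 the lowest. The difference of B20 from vehicle was 1.80 ± 1.53, and was 3.57 on the slide of 8 arrays and -2.73 on the slide of 3. The SD of Des within groups, 2.20, was above that of 99.6% of genes tested. Its probe is printed 10 times per array and the SD over these spots was 0.04 to 0.26, so the spread lies between arrays and not between spots.

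**Figure D1:**
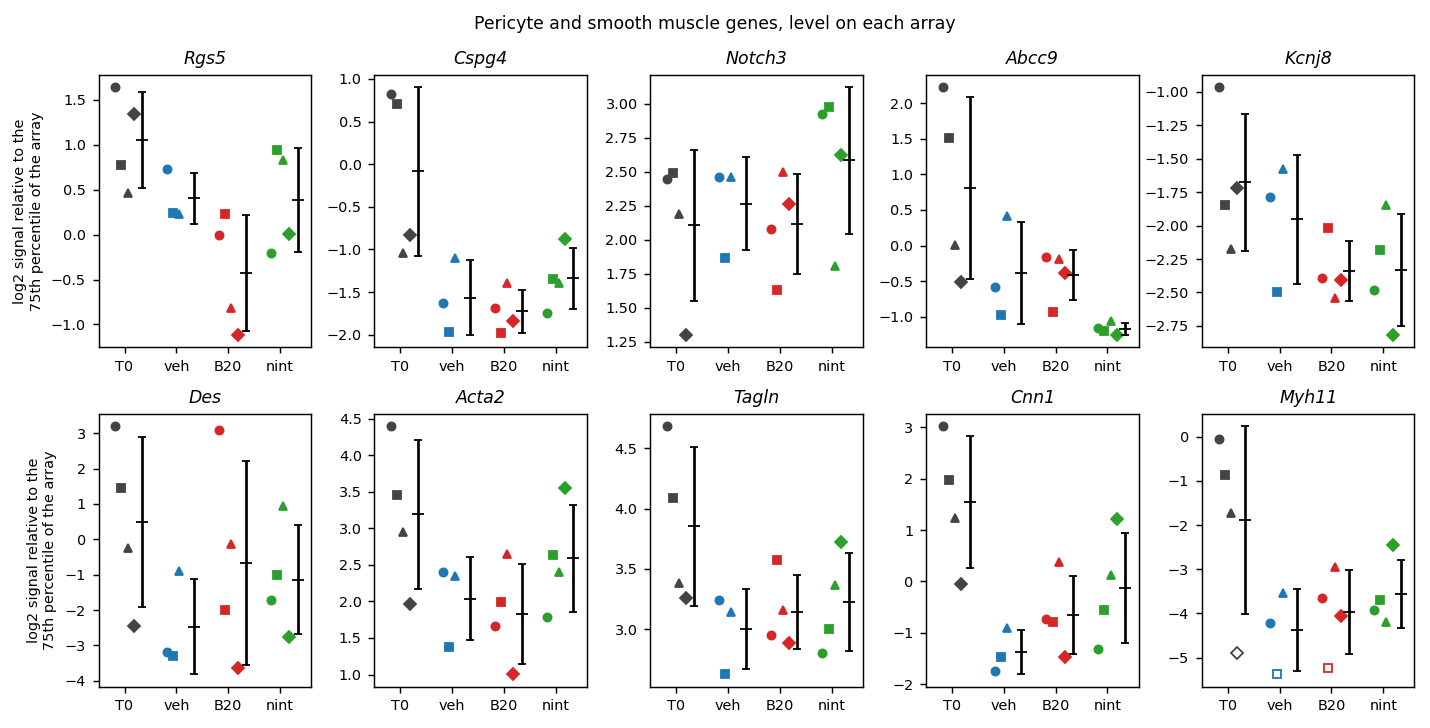
Level of each member on each of the 15 arrays (y axis: log2 signal relative to the 75th percentile of the array; x axis: T0, vehicle, B20 and nintedanib; each panel has its own scale). Circles, squares, triangles and diamonds are replicates 1 to 4, open symbols were not well above background, and the bar beside each group is its mean with 1 SD. Des spans -3.63 to 3.20, while the nintedanib arrays of Abcc9 lie within -1.25 to -1.05.

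The second question was how the mural genes of tumours at the end of treatment compared with those of tumours before it. The 3 comparisons share the T0 arrays and are not independent of each other. In vehicle against T0, 1 of 10 members was called, Cnn1, which fell; 2.13% of all genes were called lower and 2.81% higher. In nintedanib against T0, Abcc9 was the member called, lower, against 4.62% of all genes called lower and 6.83% higher. In B20 against T0, Rgs5, Cspg4 and Cnn1 were called lower, 3 of 10 members, against 3.74% of all genes lower and 5.8% higher. With normexp background correction the share of calls that were higher was 46.3% in vehicle against T0 and 42.3% in nintedanib against T0, and in vehicle more calls were lower than higher also with median scaling (49.3% higher), with only the 2 groups (47.1%) and without vehicle replicate 3 (47.7%), so the direction of the calls over all genes turned there. The median difference of the members was -1.17, -0.96 and -1.29 in the 3 comparisons, beside 0.04, 0.01 and 0.08 over all genes tested, and 9 of 10 members had a lower mean than in T0 in each.

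Every array of the later group lay below every T0 array for 3 of 10 members in vehicle (Cspg4, Tagln and Cnn1), against 6.95% of all genes. The count was 1 of 10 in nintedanib (Abcc9), against 7.46%, and 2 of 10 in B20 (Rgs5 and Cspg4), against 6.2%.

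Cnn1 was at 3.02, 1.96, 1.23 and -0.04 in the T0 arrays, and T0 replicate 4 was the lowest of them by far. Vehicle arrays all lay below it, B20 replicate 3 above it, and nintedanib replicates 3 and 4 above it. Cnn1 fell 7.56-fold in vehicle (-2.92 ± 0.69, adjusted p = 0.0299) and 4.58-fold in B20 (-2.20 ± 0.64, adjusted p = 0.0461). In nintedanib the difference was -1.68 ± 0.64 (adjusted p = 0.103). The call in vehicle was lost in 8 of 25 other settings, among them the fit of the 2 groups alone (adjusted p = 0.118), slide as a random block (0.0504), each vehicle array left out in turn (0.0669 to 0.0974), and without T0 replicate 1 (0.0807) or 2 (0.0708). The call in B20 was lost in 16 of 25, 11 of which left out 1 array. Of the settings that left out 1 array, it stayed in those without B20 replicate 3, nintedanib replicate 1, nintedanib replicate 4 or T0 replicate 4.

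Cspg4 was at 0.83 and 0.71 in T0 replicates 1 and 2 and at -1.04 and -0.83 in replicates 3 and 4. Those pairs share a slide each. Both pairs lay above every vehicle and B20 array, and nintedanib replicate 4, at -0.88, reached the lower pair. Cspg4 fell 3.12-fold in B20 (-1.64 ± 0.39, adjusted p = 0.0234), and differed by -1.48 ± 0.43 in vehicle and -1.26 ± 0.39 in nintedanib (adjusted p = 0.0624 and 0.0556). The B20 call was lost in 6 of 25 settings, including without T0 replicate 1 (0.0679) or 2 (0.0646) and without B20 replicate 2 (0.0635) or 4 (0.0658), and Cspg4 was called in vehicle and nintedanib without T0 replicate 3 (0.021 and 0.0169) or 4 (0.0299 and 0.028).

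Rgs5 was at 1.64, 0.78, 0.46 and 1.34 in T0, above all B20 arrays and overlapping vehicle and nintedanib. It fell 2.80-fold in B20 (-1.49 ± 0.36, adjusted p = 0.0253) and differed by -0.65 ± 0.39 in vehicle and -0.67 ± 0.36 in nintedanib. The order of its group means was T0, vehicle, nintedanib and B20, and vehicle and nintedanib differed by less than their spread. The call was lost in 5 of 25 settings, including without B20 replicate 3 (0.0607) or 4 (0.0799), without T0 replicate 1 (0.0761) and with arrays centred on their medians (0.0892).

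Abcc9 was at 2.23, 1.51, 0.00 and -0.51 in T0, where replicates 1 and 2 were the highest of all arrays. On the same 2 arrays the mean level of skeletal muscle markers was 6.0 and 4.47, the highest of the T0 group. Endothelial (1.80 and 1.38), adipocyte (5.36 and 4.91) and fibroblast markers (3.85 and 3.64) were also the highest of that group there. B20 replicate 1, with muscle markers at 5.30, had Abcc9 at -0.16, and was the highest of the B20 group in both. T0 replicates 1 and 2 also share a slide. The part of these cells, or of the slide, in the level of Abcc9 was not tested. Abcc9 fell 3.93-fold in nintedanib (-1.98 ± 0.50, adjusted p = 0.0233), and differed by -1.19 ± 0.54 in vehicle and -1.22 ± 0.50 in B20. The call was lost in 6 of 25 settings, including without T0 replicate 1 (0.058) or 2 (0.0662) and without nintedanib replicate 1 (0.0563), 2 (0.0505) or 4 (0.0516). Kcnj8 was at -0.96, -1.85, -2.18 and -1.72 in T0 and differed by -0.28 ± 0.31, -0.65 ± 0.29 and -0.66 ± 0.29 in vehicle, nintedanib and B20.

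The other contractile genes did not pass the test against T0 in any group. Acta2 was at 4.40, 3.45, 2.95 and 1.96 in T0, Tagln at 4.68, 4.08, 3.39 and 3.26, and Myh11 at -0.05, -0.87, -1.73 and -4.90. In all 3 genes, T0 replicate 1 was the highest and replicate 4 the lowest of the T0 arrays, and Myh11 was not well above background in replicate 4. Myh11 differed by -2.49 ± 0.93 in vehicle, -1.67 ± 0.86 in nintedanib and -2.09 ± 0.86 in B20 (adjusted p = 0.141, 0.223 and 0.144). Without T0 replicate 4 it was called in all 3 (-3.50, -2.68 and -3.09; adjusted p = 0.00848, 0.0149 and 0.00934). Over 25 other settings the differences of Myh11 ranged from -3.73 to -1.35 in vehicle, -2.68 to -1.06 in nintedanib and -3.09 to -1.11 in B20. Acta2 differed by -1.15 ± 0.55, -0.60 ± 0.51 and -1.36 ± 0.51 in the same order, and Tagln by -0.85 ± 0.34, -0.63 ± 0.31 and -0.71 ± 0.31. Without T0 replicate 4, Acta2 (adjusted p = 0.0345) and Abcc9 (0.0324) were called in B20 too, and Cnn1 in nintedanib (0.0293).

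Notch3 was the member whose mean was not lower than in T0. It stood at 2.45, 2.49, 2.19 and 1.30 in T0, and its differences were 0.16 ± 0.34 in vehicle, 0.48 ± 0.32 in nintedanib and 0.01 ± 0.32 in B20. Without T0 replicate 4, whose level was the lowest of all arrays, the vehicle and B20 differences turned to -0.11 and -0.26. Des, at 3.20, 1.44, -0.24 and -2.45 in T0, overlapped every group, and its differences of -2.95 ± 1.53, -1.63 ± 1.41 and -1.16 ± 1.41 did not pass the test.

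**Figure D2:**
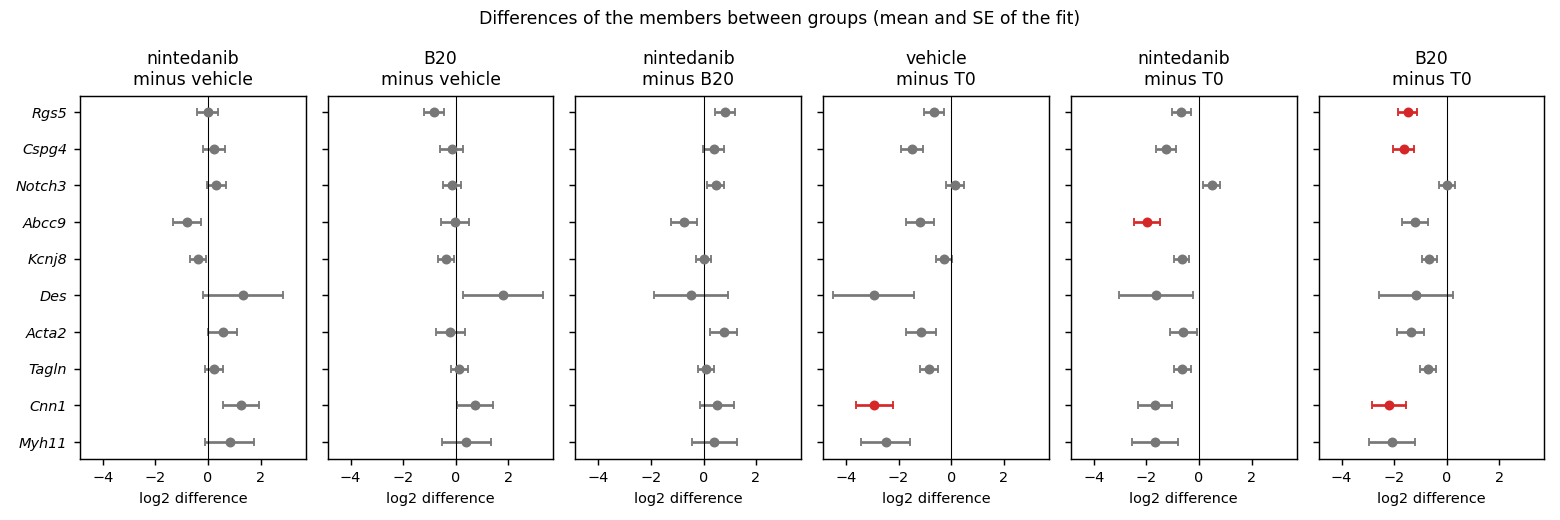
Difference of each member's mean between groups (x axis: log2 difference, first group minus second; points are fitted differences and bars their SE). Red points had an adjusted p under 0.05: Cnn1 in vehicle, Abcc9 in nintedanib, and Rgs5, Cspg4 and Cnn1 in B20, each against T0.

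Other genes of the pathway were read from lists made for this tissue. Beside their counts stand the shares of all genes called lower in vehicle, nintedanib and B20 against T0 (2.13%, 4.62% and 3.74%) and called higher (2.81%, 6.83% and 5.8%). Of 15 further pericyte genes, 1 was called lower than in T0 in vehicle, 3 in nintedanib and 6 in B20, and none higher. Enpep and Kcne4 met the filter on dim probes only with the T0 arrays, where they were high, so their calls follow in part from that choice. Without them 0, 2 and 4 of 13 were called lower, and the median differences were -0.53, -0.53 and -0.69. Pdgfrb, the receptor by which pericytes are recruited, fell by 1.13 in nintedanib (SE 0.24, adjusted p = 0.0121) and by 1.06 in B20 (SE 0.24, adjusted p = 0.0191), and differed by -0.96 ± 0.26 in vehicle (adjusted p = 0.0505). As a description, Enpep, an aminopeptidase of the pericyte surface, was well above background on all 4 T0 arrays, on 2 nintedanib arrays and on no vehicle or B20 array, and was at least 30.4-fold higher in T0 than in vehicle and at least 20.3-fold higher than in B20. The bound sets the mean of the bright arrays against, on each dim array, the probe's own signal or the dimmest signal well above background, whichever is higher. Vtn, vitronectin, and Cd248, endosialin, fell in B20 by 1.80 and 1.63 (SE 0.39 and 0.46; adjusted p = 0.0157 and 0.0415).

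Of 17 tested contractile genes, 1 was called lower in vehicle, 2 in nintedanib and 1 in B20 (2.13%, 4.62% and 3.74% of all genes), with 1 higher in nintedanib (6.83% of all genes), and median differences of -0.37, -0.58 and -0.43. Lmod1, not among those called, met the filter on dim probes only with the T0 arrays. Without it the medians over 16 genes were -0.33, -0.55 and -0.53, and the counts of calls were the same. Synpo2, an actin-bundling protein, was the gene called in all 3 (-2.0 ± 0.40, -2.07 ± 0.37 and -1.61 ± 0.37; adjusted p = 0.0154, 0.00582 and 0.0202). Actn1, alpha-actinin, rose in nintedanib by 0.79 (SE 0.21, adjusted p = 0.0281). Among 10 Notch pathway genes, 1, 3 and 1 were called higher and 0, 2 and 1 lower in vehicle, nintedanib and B20. Hey1, a target of Notch signalling, rose in all 3 (0.84 ± 0.18, 1.14 ± 0.17 and 1.22 ± 0.17; adjusted p = 0.0201, 0.00325 and 0.00353). Heyl, a Notch3 target in mural cells, fell in nintedanib (-1.32 ± 0.39, adjusted p = 0.0432) and in B20 (-1.65 ± 0.39, adjusted p = 0.0211). In vehicle its difference from T0 was -1.31 ± 0.42, which did not pass the test (limma, adjusted p = 0.0864). Of 8 tested transcription factors of mural cells, Tbx18 and Tbx2 were called lower in nintedanib (adjusted p = 0.0374 and 0.042) and in B20 (0.0219 and 0.0146), and none was called in vehicle. Tbx2 differed from T0 by -1.63 ± 0.46 in vehicle, -1.45 ± 0.42 in nintedanib and -2.0 ± 0.42 in B20. For Tbx18 the differences were -0.93 ± 0.39, -1.285 ± 0.36 and -1.53 ± 0.36 in the same order. Of 11 recruitment genes, 1, 2 and 4 were called lower and none higher: Tek, the angiopoietin receptor, in vehicle; Angpt2 and Edn1 in nintedanib; and these 3 with Tgfbr2 in B20. Among the 3 groups at the end of treatment none of the genes of these lists was called, and the smallest unadjusted p was 0.00174, for Tgfb1 in nintedanib against B20 (1.03 ± 0.27, adjusted p = 0.518).

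Among markers of other cell types, most calls against T0 were of adipocyte and endothelial genes, and all of those were lower. Adipocyte markers had mean levels of 3.27 to 5.36 in T0, -1.57 to 0.34 in vehicle, 0.17 to 2.21 in B20 and -0.07 to 2.89 in nintedanib, and 9 of 10 were called lower in each comparison with T0. Endothelial markers ranged from 0.54 to 1.80 in T0 and from -0.58 to 0.40 later, with 3, 7 and 11 of 15 called lower in vehicle, nintedanib and B20. Fibroblast markers ranged from 3.26 to 3.85 in T0 and 2.38 to 3.47 later, with 0, 1 and 1 of 12 called lower. Skeletal muscle markers ranged from 0.51 to 6.0 in T0, -1.26 to 1.36 in vehicle, -0.76 to 5.30 in B20 and -1.25 to 2.33 in nintedanib, with none of 15 called. Markers of basal and myoepithelial cells, which also make Acta2, Tagln, Cnn1 and Myh11, lay between 1.14 and 1.44 in T0 and 0.86 and 1.81 later, and their median differences were 0.05, 0.13 and -0.10. Of these 11 markers, Oxtr and Col17a1 were called lower in nintedanib (-1.51 and -1.63), and Oxtr lower (-1.52) and Krt17 higher (1.41) in B20. The 5 markers of cardiac muscle had mean levels of -4.15 to -2.67 in T0 and -3.81 to -3.25 later, and those of luminal epithelium 2.95 to 3.75 and 2.28 to 3.21, with 1, 2 and 1 of 10 called lower. The part of these cells in the members' differences from T0 was not tested.

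Each member's deviations from its group means were set against those of 7 marker lists, 70 relations in all, a comparison added after the data had been seen. The deviations of Des correlated with those of the skeletal muscle markers over the 15 arrays: r was 0.99 and rho 0.98 (exact permutation within groups, two-sided, p = 2.41e-05 and 3.62e-05; adjusted p = 0.00169 and 0.00211), 0.97 without the 2 arrays farthest from the median, and 0.99 on the slide of 8. B20 replicate 1 and T0 replicates 1 and 2, the arrays with the most muscle signal, were those with the most Des. The genes whose level was most like that of Des were Acta1, Mybpc2 and Actn3, all genes of skeletal muscle (r of levels 0.995, 0.991 and 0.989 over 15 arrays). Abcc9, whose product is also part of the potassium channel of muscle fibres, had r = 0.74 and rho = 0.80 with the same markers (adjusted p = 0.0187 and 0.0135, exact permutation). Cnn1 had r = 0.87 and rho = 0.95 with adipocyte markers (adjusted p = 0.0097 and 0.00211) and r = 0.735 and rho = 0.80 with fibroblast markers (0.0224 and 0.0135), and Cspg4 had r = 0.73 and rho = 0.83 with fibroblast markers (0.0115 and 0.00506), all by exact permutation. Without the 2 farthest arrays r was 0.78, 0.84, 0.595 and 0.68 for these 4 relations, and their adjusted p-values were 0.0574, 0.0574, 0.203 and 0.0574, so that of Des alone stayed under 0.05. With endothelial markers, r was 0.84 for Abcc9 and 0.88 for Cspg4, higher than with the muscle and fibroblast markers above. These relations had adjusted p = 0.0875 and 0.0678 (exact permutation), and r was 0.42 and 0.63 without the 2 farthest arrays. The basal and myoepithelial list had no relation with an adjusted p under 0.05 with any member. Its highest r was that with Notch3 (r = 0.54, rho = 0.69, adjusted p = 0.111 and 0.063, exact permutation). With Acta2 its r was 0.28 and with Myh11 0.30. On the slide of 8, r was 0.65 with Notch3, 0.46 with Acta2 and 0.475 with Myh11.

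**Figure D3:**
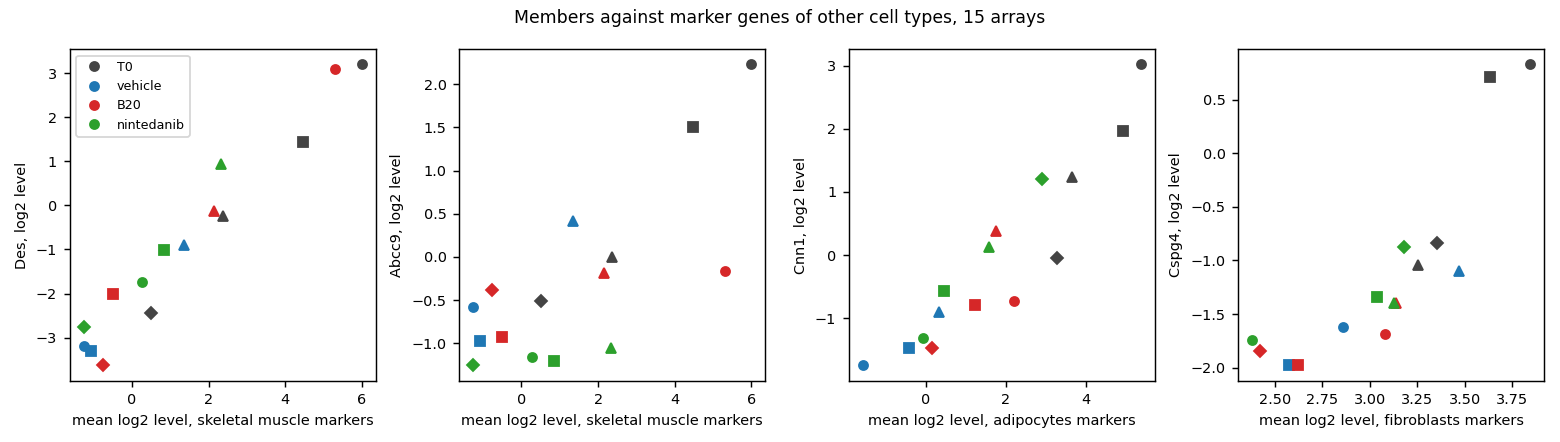
Level of Des, Abcc9, Cnn1 and Cspg4 (y axes, log2) against the mean log2 level of the markers of skeletal muscle, adipocytes or fibroblasts (x axes) on the 15 arrays, coloured by group, with symbols for replicates 1 to 4. Des lies along 1 line with the muscle markers, with B20 replicate 1 beside the T0 arrays at the upper end.

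Members were also compared with each other by their deviations from group means, over 45 pairs and all 82944 orderings within groups. Of these pairs 42 had a positive r, with a median of 0.52, and 13 had an adjusted p under 0.05 for r. Pairs of other genes were not counted, so these numbers cannot be called particular to mural genes. The orderings also took no account of slide, and T0 replicates 1 and 2 share a slide, as do replicates 3 and 4. The highest r was that of Acta2 with Cnn1 (r = 0.91, rho = 0.80). Acta2 was also linked with Tagln (0.85 and 0.85) and with Myh11 (0.80 and 0.78), and these 3 pairs each had an adjusted p of 0.0216 by exact permutation for r and of 0.0303 for rho. Cspg4 was linked with Acta2 (r = 0.77), Cnn1 (0.78), Myh11 (0.77) and Abcc9 (0.89), the last with the highest rho of all pairs (0.85), and Myh11 with Abcc9 (r = 0.82). By rho, Cspg4 with Abcc9 and Myh11 with Abcc9 did not pass (adjusted p = 0.0657 and 0.0979, exact permutation). Nor did Cnn1 with Tagln (0.0859) and Myh11 with Notch3 (0.186), which were called by r. Rgs5 was linked with Kcnj8 alone (r = 0.69, rho = 0.69, adjusted p = 0.0248 and 0.0303, exact permutation), and its r with Acta2, Cnn1 and Myh11 was 0.20, 0.07 and -0.21. Kcnj8 and Abcc9, the channel partners, had r = 0.52 (adjusted p = 0.244, exact permutation). Without the 2 arrays farthest from the median of the first gene, the adjusted p of these 13 pairs was 0.146 to 0.32 over the 13 arrays left, while 11 of them had an unadjusted p under 0.05 and their r was 0.55 to 0.86 (exact permutation). Acta2 with Myh11 then had 0.80 and Rgs5 with Kcnj8 0.67, and 34 of 45 pairs had a positive r, with a median of 0.32. On the slide of 8 arrays, which allows 72 orderings, 31 pairs had a positive r with a median of 0.26. There Rgs5 with Kcnj8 had 0.79, Acta2 with Cnn1 0.56 and Acta2 with Tagln 0.56.

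**Figure D4:**
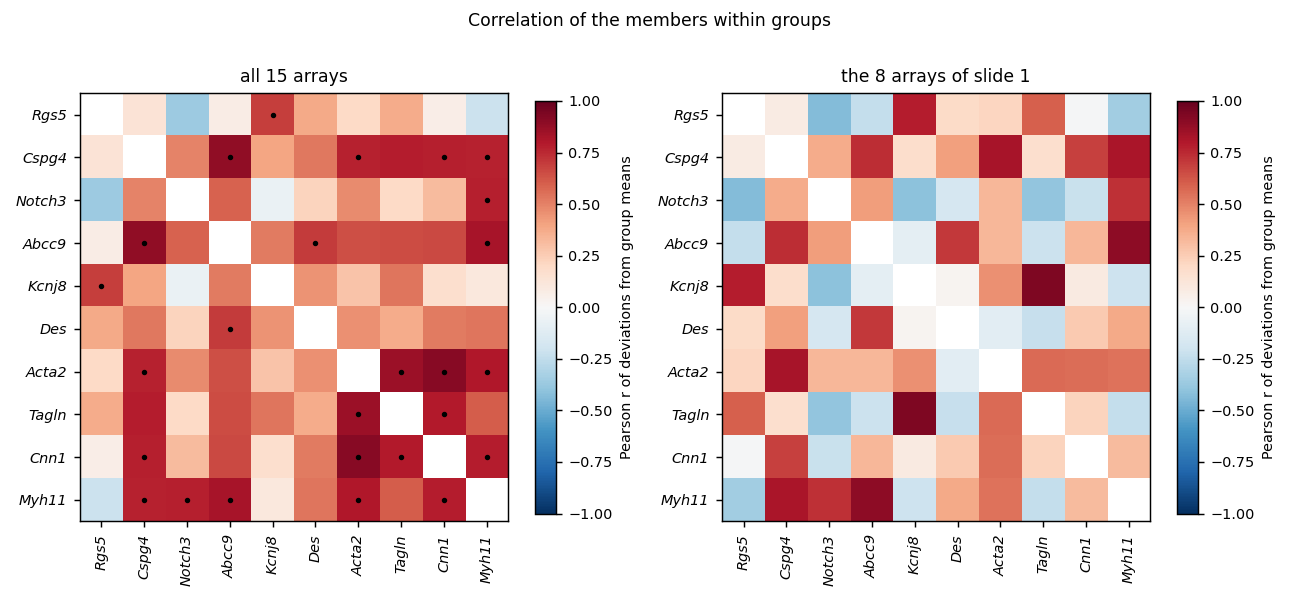
Pearson r between the deviations of 2 members from their group means, over all 15 arrays (left) and the 8 arrays of slide 1 (right); red is positive and blue negative. Black dots mark the 13 pairs with an adjusted p under 0.05. The contractile genes and Cspg4 form the reddest part on the left, and the colours are weaker on the right, where the median r is 0.26.

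For each member the 3 named genes whose levels were most like its own over the 15 arrays were found among 16094 genes, as a description. For Rgs5 they were Ppic, Ecscr and Tfpi (r = 0.96, 0.92 and 0.92), for Cspg4 Sh3tc1, Nos3 and Agtr1a (0.97, 0.97 and 0.96), and for Kcnj8 Higd1b, Tbx1 and Rasl12 (0.90, 0.88 and 0.88). Higd1b is on the list of pericyte genes. For Acta2 they were Myl9, a myosin light chain of smooth muscle, Gas7 and Prx (0.94, 0.93 and 0.91), for Tagln Kcnk3, Gpx3 and Sema6b (0.94, 0.92 and 0.92), and for Myh11 Tns2, Ptn and Vwf (0.97, 0.94 and 0.93). Those of Cnn1 were St6galnac5, Trarg1 and Dgat2 (0.97, 0.96 and 0.95), of which Dgat2 makes triglycerides in fat cells. Those of Abcc9 were Cpt2, Ptprb and Jcad (0.96, 0.95 and 0.95), and those of Notch3 Mapk8ip3, Abcc10 and Iqsec2 (0.96, 0.95 and 0.94). All arrays share the same scaling, and the differences between T0 and later arrays enter these values.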

How the data were processed

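Total RNA (0.5 ug per sample) was labelled with Cy3 and hybridised to 15 one-colour arrays. Per the file headers, Feature Extraction 10.7.3.1 made the background-subtracted, detrended spot intensity that the authors deposited. The flags (well above background, saturated, outlier) are other values per the file headers. The authors' deposited series table of log2 values, with no processing stated in those headers, was used as an alternative. Control and outlier spots were left out, spots of a probe were averaged as log2, missing values were not filled, and each array was scaled by its 75th percentile. Probes had to be well above background on 3 or more of the 15 arrays, and the brightest probe stood for a gene. No spot was saturated. The number of arrays limits the precision, with a median SE of a difference of 0.27 to 0.29 log2.

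In R 4.3.3, limma 3.58.1 (lmFit, eBayes) fitted 4 group means over all 15 arrays, with Benjamini-Hochberg adjustment over 28041 genes and unnamed transcripts. Correlations were tested by exact permutation within groups. Alternatives were normexp (offset 50; from the median spot signal, the mean not being among the columns used), other scalings, the authors' values, no filter, all probes of a gene, array weights, other sample sets, blocks and leaving out arrays. The scripts were tested on simulated data.

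The members, lists and tests were chosen with earlier results of these data known. The text names all members in every comparison, genes from each list that were called or had the smallest p, and the 3 genes most like each member. Of the list genes that this rule names, examples are printed and the rest are given as counts.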

Additional observations from a re-analysis of the deposited data

How the results depend on the processing

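Of 1530 recomputed member differences, 1421 kept their direction and their side of the threshold, 41 lost a call, 24 gained one and 44 changed sign. Only differences called in the reported fit could lose a call, and each of those was recomputed in 25 settings. Against T0, calls were lost in 8 settings for Cnn1 in vehicle and 6 for Abcc9 in nintedanib. In B20 they were lost in 5, 6 and 16 settings for Rgs5, Cspg4 and Cnn1. The sign changes fell in 14 of 60 differences, all of them smaller than 1 SE in the reported fit. With array weights the differences from vehicle became 0.0752 for Rgs5 in nintedanib and, in B20, 0.0564 for Cspg4, 0.0634 for Acta2, 0.30 for Abcc9 and 0.0631 for Notch3, and Notch3 differed from T0 by -0.25 in vehicle and -0.19 in B20. On the slide of 8 arrays, those from vehicle became 0.0334 for Rgs5 in nintedanib and 0.11, 0.22 and 0.35 for Cspg4, Acta2 and Abcc9 in B20, and nintedanib differed from B20 by -0.20 for Cnn1 and -0.17 for Tagln. In nintedanib against B20, Myh11 became -0.0854 and Kcnj8 -0.11 with normexp, and Kcnj8 -0.0032 with quantile normalisation and -0.009 with median scaling. Leaving out 1 array at a time gave, against vehicle, -0.19 to 0.19 for Rgs5 in nintedanib and, in B20, -0.37 to 0.0722 for Cspg4, -0.54 to 0.0642 for Acta2, -0.0943 to 0.82 for Myh11, -0.0483 to 0.26 for Tagln, -0.33 to 0.36 for Abcc9 and -0.34 to 0.0173 for Notch3. In nintedanib against B20 it gave -1.46 to 0.78 for Des, -0.0052 to 0.75 for Myh11, -0.0826 to 0.23 for Tagln and -0.15 to 0.17 for Kcnj8. Against T0, Notch3 took -0.11 to 0.35 in vehicle and -0.26 to 0.17 in B20.

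Counts of genes called in vehicle against T0 (1385 as reported) were 680 with median scaling, 895 with no filter, 5280 with array weights, 17 with only the 2 groups, 876 with slide as a random block and 480 to 2099 with 1 array left out. In nintedanib against T0 (3211) they were 1365, 7928, 1462 and 2031 with median scaling, weights, 2 groups and random block, and 1613 to 3919. In B20 against T0 (2675) they were 1608 with normexp, then 1184, 6065, 984 and 1538, and 920 to 3305. Nintedanib against vehicle gave 12 calls with array weights and 0 to 2 with 1 array left out, and nintedanib against B20 gave 1 with only the 2 groups and 0 to 1. B20 against vehicle gave 0 to 0. Array weights called Cspg4, Cnn1, Myh11, Tagln and Abcc9 in all 3 comparisons with T0, Acta2 in vehicle and B20, Des in vehicle and Rgs5 in B20. The cause of these changes was not tested. The median difference of all genes shifted to 0.12 and 0.11 with array weights in vehicle and B20 against T0, and to -0.16 with normexp in nintedanib against B20.

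Replicate numbers did not pair the arrays (median r of deviations 0.01 for the same number and -0.01 for different ones). With the number as a block, Cnn1 lost its call in vehicle (adjusted p = 0.0513) and in B20 (0.0796) against T0, and 2 small differences changed sign, to 0.0758 for Rgs5 in nintedanib and 0.12 for Abcc9 in B20, both against vehicle. Member pairs with an adjusted p under 0.05 numbered 13, with 12 without T0 replicate 3, 0 on the slide of 8 arrays and 0 without the 2 farthest arrays. On that slide no p can be under 0.0139, so 13 pairs would have to reach it for any call, and its 0 says nothing about stability. Signal over background limits Myh11 most.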
